A study of Mus musculus with 4 samples.

Results

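Paneth cells sit between the intestinal stem cells (ISCs) at the base of the small intestinal crypt and secrete antimicrobial proteins from large granules into the crypt lumen. The granules hold lysozyme, alpha-defensins (called cryptdins in mice) and other lectins and enzymes, and the protease matrilysin cuts the mouse alpha-defensin precursors into their active form. The C-type lectins REG3B and REG3G, made by Paneth cells and also by enterocytes, act on bacteria at the epithelial surface and are known to be induced by signals from microbes and by interleukin 22.

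The 10 genes described here, of 52459 genes listed in the counts, were taken by name: Lyz1, Mmp7, Ang4, Itln1, Defa17, Defa22, Defa24, AY761184, Reg3b and Reg3g. All 10 were found in the counts, and all 10 were among the 13692 genes tested. They were measured in 4 full length (FL) RNA-seq libraries of sorted ISCs from wild-type (WT) C57/Bl6 mice, female as the study's methods give it and housed free of specific pathogens, 2 from young animals of 2 months (ISC_2mth) and 2 from old animals of 22 months (ISC_22mth), with no treatment named for either age. Each library stands for a pool of 5 animals, so that differences between single animals are averaged within a pool and 1 age rests on 2 pools. Sorting kept EPCAM+ epithelial cells with EPHB2 and CD44 high, CD166 present, CD24 at a medium level and GRP78 low, and removed CD31+ and CD45+ cells. The comparison of the ages asks how the transcriptome of ISCs changes with aging.

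Read counts per library ranged from 11662654 to 15975698, of which between 62.6% and 73.8% lay on mitochondrially encoded genes, more in both old pools than in both young pools. Markers of crypt base stem cells were present in every pool, with Lgr5 between 206 and 248 CPM (counts scaled by TMM to a common library size) and Olfm4 between 1111 and 1302 CPM. Ptprc, the gene of CD45, held at most 2 counts in a library and Pecam1, the gene of CD31, at most 7. Goblet cell RNA was also present, with Muc2 between 1014 and 1441 CPM. In bulk RNA, a change in the number of cells of a type and a change in the RNA per cell cannot be told apart, which applies to every Paneth cell transcript given here.

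The alpha-defensin genes are shown first, because copies that are nearly identical limit what a read count can say about each of them. All 4 members of this group lie in the defensin cluster on chromosome 8 of GRCm38 (GENCODE vM21 annotation), as protein-coding genes. Defa17 spans 21655780 to 21656735 and Defa22 21162277 to 21163249, both on the plus strand. Defa24 spans 21734494 to 21735471 on the plus strand, and AY761184 spans 21702519 to 21703645 on the minus strand. The last stretch of each coding sequence is printed 5′ to 3′ from the GENCODE transcripts, from coding base 160 to 279 for the Defa genes and from 169 to 348 for AY761184, with the codons for cysteine in capitals. Defa30, elsewhere in the same cluster from 21134642 to 21135598, is added because its sequence is nearly the same as that of Defa24.
Defa17: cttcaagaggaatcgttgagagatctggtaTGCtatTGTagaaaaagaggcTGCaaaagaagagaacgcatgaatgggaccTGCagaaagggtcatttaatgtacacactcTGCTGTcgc
Defa24: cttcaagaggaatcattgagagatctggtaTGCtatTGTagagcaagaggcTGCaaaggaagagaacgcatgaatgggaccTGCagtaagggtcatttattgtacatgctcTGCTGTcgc
Defa30: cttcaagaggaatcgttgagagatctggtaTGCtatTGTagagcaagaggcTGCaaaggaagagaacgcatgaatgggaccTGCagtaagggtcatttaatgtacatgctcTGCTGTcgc
Defa22: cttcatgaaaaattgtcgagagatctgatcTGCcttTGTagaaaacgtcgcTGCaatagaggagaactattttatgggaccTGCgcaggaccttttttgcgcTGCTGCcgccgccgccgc
AY761184: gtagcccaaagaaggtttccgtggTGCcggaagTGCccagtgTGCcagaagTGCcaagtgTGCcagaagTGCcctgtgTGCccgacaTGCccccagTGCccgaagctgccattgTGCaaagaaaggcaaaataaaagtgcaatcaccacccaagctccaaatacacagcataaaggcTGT
Defa17, Defa22 and Defa24 each encode 93 residues with 6 cysteines, the number that forms the disulfide bonds of an alpha-defensin. AY761184 encodes 116 residues with 11 cysteines, most of them with a pair of other codons between them, the layout of the cryptdin-related sequence peptides of mouse Paneth cells. Its coding sequence was 64.7% identical to that of Defa17 over the whole alignment, against 95.7% between Defa17 and Defa24.

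The coding sequence of Defa17 was 100% identical to that of Defa3, that of Defa24 was 98.6% identical to that of Defa30, and that of Defa22 was 99.3% identical to that of Defa21. Reads of the libraries were cropped to at most 50 bases, so the share of a gene's 50-base stretches that also occur in transcripts of other genes was counted. It was 92.0% for Defa17 (320 of 348 stretches), 74.9% for Defa22, 33.5% for AY761184 and 28.1% for Defa24. Among the other members it was 16.1% for Lyz1, all of it shared with Lyz2, 7.36% for Mmp7, 4.70% for Ang4, 0.972% for Itln1 and 0 for Reg3b and Reg3g. How reads that align to several places were counted is not given in the sources used here. Defa31 shares 71 of its stretches (21.65%) with Defa30, yet held 0 counts in all 4 libraries, where Defa30 held between 1741 and 4471. Reads of the stretches shared by this pair were thus not counted for both genes. The counts of Defa17 and Defa22 in particular are uncertain as values of single genes. Exons of Mmp7 also overlap those of AV064505, on the opposite strand, over 123 bp, and without strand the reads of that overlap belong to neither gene for certain.

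**Figure D1:**
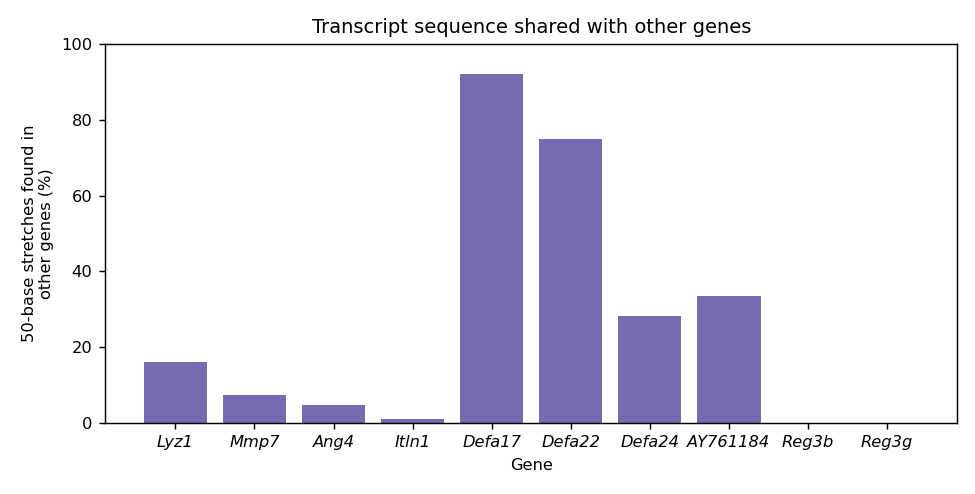
Percentage of the 50-base stretches of each gene's transcripts that also occur in transcripts of other genes (bars, vertical axis from 0 to 100%), for the 10 genes on the horizontal axis. Defa17 at 92.0% and Defa22 at 74.9% stand highest, and Reg3b and Reg3g are at 0.

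With age, 2 of the 10 genes passed the test, the alpha-defensin genes Defa17 and Defa24, both with higher expression in old ISCs. Every log2 fold change (old over young), its standard error (SE) and its adjusted p (Benjamini-Hochberg FDR) below come from a quasi-likelihood fit in edgeR to all 13692 genes, unless another tool is named. In this fit 2.26% of all genes had FDR under 0.05 in either direction and 1.63% were higher in old ISCs. No member passed in the lower direction. The log2 fold change was above 0 for all 10 members, with a median of 0.74 against -0.0049 over all genes tested. An unadjusted p under 0.05 was reached by 7 members and by 16.9% of all genes tested. Under scaling by total counts alone, which moved the median of all genes to -0.50, the members' median was 0.22.

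In 8 of the 10 genes the highest level was in the same library, ISC_22mth replicate 1 (called old pool 1 below), which held for 25.3% of all genes tested. The same 8 genes were at least 1.5 times higher in old pool 1 than in ISC_22mth replicate 2 (old pool 2), which held for 12.0% of all genes tested. Of the 10 genes, 3 had both old pools above both young pools, Defa17, Defa24 and Reg3g, which held for 24.0% of all genes tested. Without old pool 1, 2 members had FDR under 0.05, Reg3b higher and Lyz1 lower in the remaining old pool, while Defa17 and Defa24 no longer passed, and 4.73% of all genes were called. That fit leaves 1 old library, which is taken to vary as the young pools do. Without old pool 2, 7 members passed, all higher: Lyz1, Mmp7, Ang4, Itln1, Defa17, Defa24 and AY761184, with 5.05% of all genes called. Without young pool 1 (ISC_2mth replicate 1) 7 members and 1.07% of all genes passed, and without young pool 2 these were 4 members and 2.04%, Defa17 and Defa24 among the members both times.

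**Figure D2:**
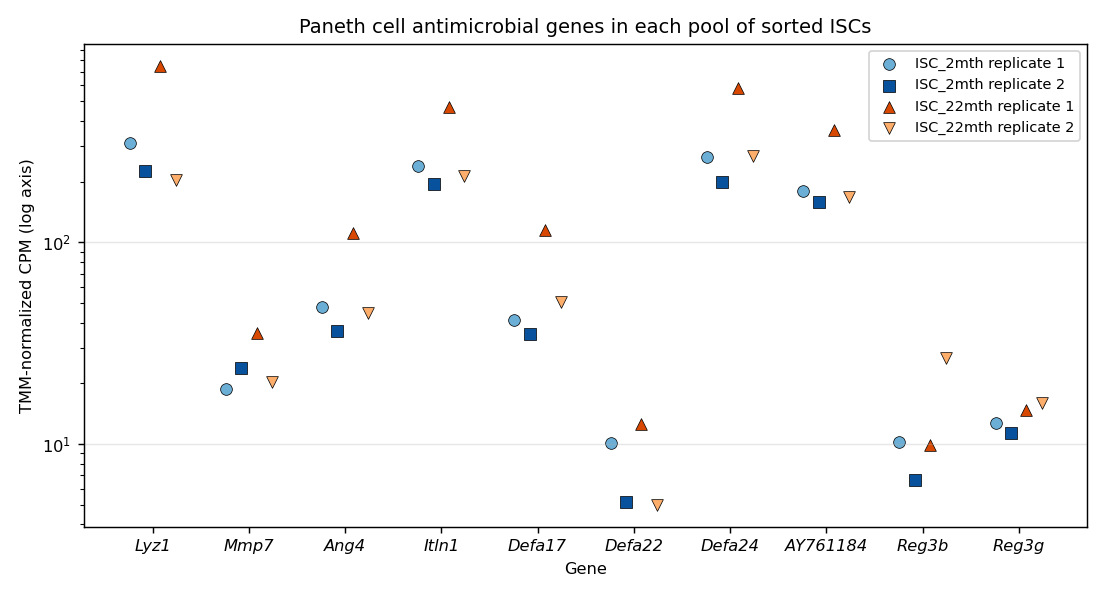
TMM-normalized CPM on a log axis for the 10 genes on the horizontal axis, with 1 point for each of the 4 pools (blue, ISC_2mth, and orange, ISC_22mth). ISC_22mth replicate 1 is the highest point for every gene except Reg3b and Reg3g, and ISC_22mth replicate 2 lies close to the young pools for most of these genes.

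Lysozyme was the member with the widest spread between the old pools. Lyz1 encodes the lysozyme of Paneth cells, which cleaves the peptidoglycan of bacterial walls, and lies on chromosome 10 from 117287797 to 117292868. Its level was 311 and 227 CPM in the young pools, 750 CPM in old pool 1 and 204 CPM in old pool 2. Old pool 1 was therefore 2.79 times the young mean and old pool 2 0.757 times, so that the young pools lay between the old ones. The log2 fold change was 0.83 (SE 0.33, FDR = 0.20), and it became -0.40 (FDR = 0.039) without old pool 1. The related Lyz2, the lysozyme of macrophages, held between 3 and 9 counts per library.

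The alpha-defensins Defa17 and Defa24 were also highest in old pool 1, but unlike Lyz1 they had old pool 2 above both young pools. Defa17 was at 41.5 and 35.1 CPM in the young pools, 114.6 CPM in old pool 1 and 50.5 CPM in old pool 2. It rose with a log2 fold change of 1.11 (SE 0.23, FDR = 0.016), from a mean of 38.3 CPM (SD 4.53) over the 2 young pools to 82.6 CPM (SD 45.3) over the 2 old pools. Each old pool exceeded each young pool, at 2.99 times the young mean in old pool 1 and 1.32 times in old pool 2. Defa24 was at 266 and 199 CPM in the young pools and at 584 and 268 CPM in old pools 1 and 2. Its log2 fold change was 0.87 (SE 0.22, FDR = 0.046), with old pool 2 above the higher young pool by less than the gap between the young pools. Without old pool 1 the log2 fold changes of Defa17 and Defa24 were 0.40 (FDR = 0.12) and 0.20 (FDR = 0.40), and DESeq2 called neither (FDR = 0.50 and 0.66). With total counts the values were 0.60 (FDR = 0.021) for Defa17 and 0.36 (FDR = 0.13) for Defa24, and Defa24 also missed the threshold with the upper quartile, both stricter filters and the offsets for GC content and length (FDR between 0.063 and 0.080).

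AY761184 and Defa22 did not pass. AY761184 was at 180 and 159 CPM in the young pools, 360 CPM in old pool 1 and 168 CPM in old pool 2, a log2 fold change of 0.64 (SE 0.21, FDR = 0.13). Old pool 2 lay between the young pools. Defa22, the least expressed alpha-defensin of the members, was at 10.1 and 5.17 CPM in the young pools and at 12.6 and 5.00 CPM in the old pools, so that replicate 1 exceeded replicate 2 in both ages, by 1.96 times in young and 2.51 times in old. Its log2 fold change was 0.21 (SE 0.34, FDR = 0.81), and it became -0.31 with total counts.

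Summing each of these genes with the copies named below left the calls in place, an alternative chosen after seeing the data. No cut on identity was set, and Defa30, 97.1% identical to Defa17 in coding bases, was summed with Defa24 only. A sum does not return reads that were counted for no copy. Defa17 with Defa3 held 668 and 584 counts in the young pools and 1666 and 673 in the old pools, with a log2 fold change of 1.10 (FDR = 0.016). Defa24 with Defa30 held 5630 and 4747 counts in young and 12184 and 5180 in old pools, with a log2 fold change of 0.94 (FDR = 0.023). Neither Defa22 with Defa21 (0.48, FDR = 0.48) nor AY761184 with Gm14851 and Defa29 (0.52, FDR = 0.23) passed.

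Mmp7, Ang4 and Itln1 encode proteins that act beside the defensins. Mmp7, matrilysin, the protease that activates mouse alpha-defensins, lies on chromosome 9 from 7692090 to 7699585 and was at 18.8 and 23.9 CPM in the young pools and at 35.6 and 20.4 CPM in old pools 1 and 2. Its log2 fold change of 0.39 (SE 0.21, FDR = 0.35) did not pass and became -0.099 with total counts. Mmp7 was the only one of the 8 genes that peaked in old pool 1 to be lower in young pool 1 than in young pool 2.
Ang4, a ribonuclease of the angiogenin family with microbicidal activity, lies on chromosome 14 from 51763878 to 51773590. It was at 47.7 and 36.4 CPM in the young pools, 111 CPM in old pool 1 and 44.8 CPM in old pool 2, a log2 fold change of 0.89 (SE 0.25, FDR = 0.074). Old pool 2 lay between the young pools, and the value became 0.09 (FDR = 0.83) without old pool 1.
Itln1 encodes intelectin, a secreted lectin for microbial glycans made by Paneth and goblet cells, and lies on chromosome 1 from 171518122 to 171535294. It was at 240 and 194 CPM in the young pools and at 467 and 213 CPM in the old pools, a log2 fold change of 0.65 (SE 0.22, FDR = 0.13), again with old pool 2 inside the young range.

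The 8 members other than the REG3 genes together took 0.371% and 0.289% of the counts outside mitochondrially encoded genes in the young pools. They took 0.769% in old pool 1 (95% Wilson interval 0.761 to 0.777%) and 0.308% in old pool 2 (0.303 to 0.314%). Old pool 2 thus lay between the young pools, and old pool 1 above all others. Such intervals hold the counting error alone, because the RNA was amplified and molecules carried no identifiers.

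Reg3b and Reg3g, which lie on chromosome 6 from 78370657 to 78373466 and from 78466269 to 78468872, did not share the peak in old pool 1. Reg3b was at 10.2 and 6.63 CPM in the young pools and 9.91 CPM in old pool 1, but at 26.9 CPM in old pool 2, which was 3.19 times the young mean. Its log2 fold change of 1.12 (SE 0.32, FDR = 0.073) became 1.68 without old pool 1 and 0.24 without old pool 2. Old pool 1 lay inside the young range, so that the difference rests on old pool 2. Reg3g was at 12.7 and 11.4 CPM in the young pools and at 14.8 and 15.97 CPM in the old pools, with a log2 fold change of 0.35 (SE 0.19, FDR = 0.35). Its old pools lay close together and above both young pools, but the difference did not pass and became -0.14 with total counts.

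**Figure D3:**
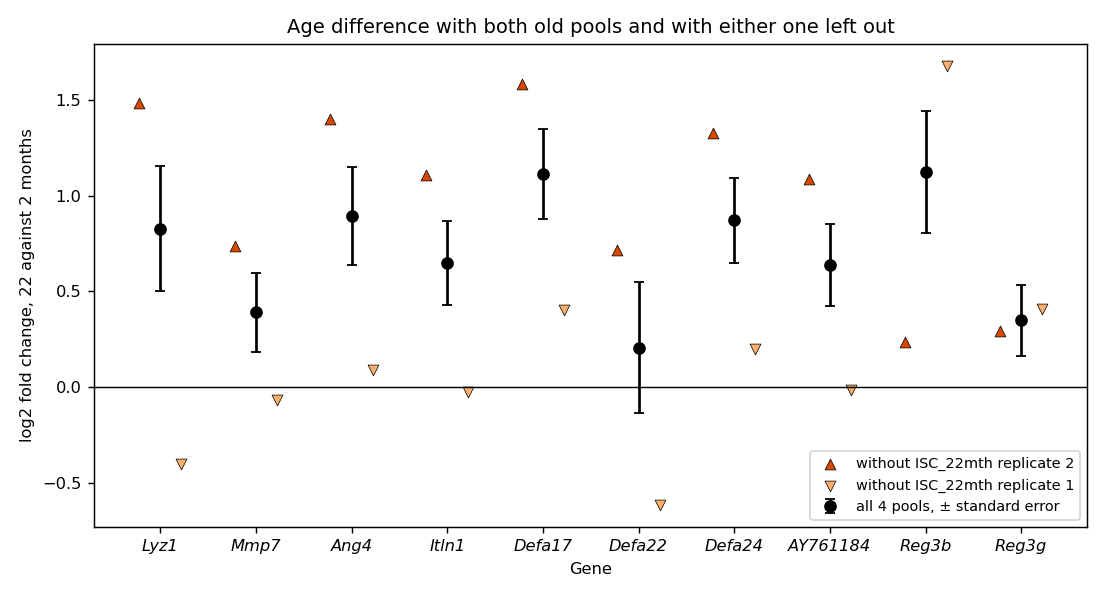
Log2 fold change of old against young ISCs for the 10 genes, with all 4 pools (black points, bars ± standard error) and with 1 old pool left out (triangles). Without ISC_22mth replicate 1 the values of Lyz1, Mmp7, Itln1, Defa22 and AY761184 lie below 0, and that of Reg3b is 1.68.

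Levels of the members were compared with each other per kilobase of exon (CPM per kb, mean of the 4 pools). Defa24 was highest at 786 CPM per kb, followed by AY761184 at 431, Lyz1 at 295, Itln1 at 244, Defa17 at 152 and Ang4 at 84.6 CPM per kb. Mmp7 (23.1), Defa22 (19.6), Reg3b (11.7) and Reg3g (6.48 CPM per kb) lay lower. Of the 9 neighbouring pairs in this order, 8 had overlapping ranges over the pools, the exception being Ang4 and Mmp7, while 6 pairs had the same order within each of the 4 pools. On the same scale Lgr5, the stem cell marker, was at 21.4 and Olfm4, another stem cell marker, at 416 CPM per kb. Levels of the defensin genes depend on how shared reads were counted.

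Of the alpha-defensin and related genes outside the members, 42 were listed in the counts and 8 were tested. Defa30 was called higher in old ISCs and none was called lower, while DESeq2 called none of the 8. Defa30 was at 122 and 115 CPM in the young pools and at 338 and 157 CPM in old pools 1 and 2, with a log2 fold change of 1.06 (SE 0.21, FDR = 0.013). Gm14851, a relative of AY761184 with 96.8% identical coding bases, was at 129 and 109 CPM in young and at 218 and 87.4 CPM in old pools (log2 fold change 0.36, FDR = 0.48). All 8 tested genes were highest in old pool 1, and their median log2 fold change was 0.58.
Another 20 of these genes, 9 of them named as pseudogenes, were listed at 0 in all 4 libraries. A median of 86.0% of their 50-base stretches occur in other genes, against a median of 54.0% for the 12 tested alpha-defensin and related genes, members included, but 5 of the 20, all named as pseudogenes, share no stretch with another gene. Where most of the sequence is shared, a count of 0 does not show that the gene was silent.

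Other secreted products of Paneth cells and relatives of the members gave no call. Of 8 tested, none was called by edgeR's quasi-likelihood test, by limma voom with sample quality weights, by the likelihood ratio test or by DESeq2, and 2 had an unadjusted p under 0.05. Guca2a, which encodes guanylin, and Clps, which encodes colipase, were the most expressed. Guca2a was at 32.2 and 54.3 CPM in young and at 45.6 and 39.0 CPM in old pools. Clps was at 15.1 and 11.6 CPM in young and at 22.4 and 9.99 CPM in old pools 1 and 2 (log2 fold change 0.28, FDR = 0.63), highest in old pool 1 as were 4 of the 8 tested genes. The log2 fold change was below 0 for 5 of the 8, with a median of -0.14. The lowest adjusted p of these 5 was that of Mptx2, a mucosal pentraxin of Paneth cells, with a log2 fold change of -0.54 (unadjusted p = 0.038, FDR = 0.27). The other gene at an unadjusted p under 0.05, Guca2b, which encodes uroguanylin, had a value of the opposite sign, 0.61 (FDR = 0.22), with both old pools above both young pools. The summed level of the list was 1.16 times the young mean in old pool 1 and 0.875 times in old pool 2.
None of 14 factors of Paneth cell fate and niche signals was called by any of these 4 tests either, with 2 at an unadjusted p under 0.05. Sox9, which Paneth cells need to form but which stem cells also express, was at 113 and 120 CPM in young and at 91.9 and 100.2 CPM in old pools (log2 fold change -0.28, FDR = 0.25). Kcnn4, a potassium channel, was the next most expressed gene of this list, with a log2 fold change of -0.18 (FDR = 0.57). Of the 14 genes 8 had a log2 fold change above 0, and the median was 0.03. The lowest p of the list was that of Atoh1, the factor of secretory fate, at 6.97 and 10.5 CPM in young and 15.1 and 12.3 CPM in old pools (log2 fold change 0.64, FDR = 0.15).

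Among the other REG family lectins 3 of 5 genes were tested, and Reg1 was called higher in old ISCs. Reg1 was at 6.002 and 4.90 CPM in the young pools and at 13.2 and 11.4 CPM in the old pools, a log2 fold change of 1.18 (SE 0.23, FDR = 0.0096), with the old pools close together. Reg4 was at 15.2 and 17.6 CPM in young and 34.1 and 10.6 CPM in old pools 1 and 2, and did not pass (log2 fold change 0.46, FDR = 0.48). Of 16 genes of the cytokine and microbial sensing pathways upstream of the Reg3 genes, among them the feedback inhibitor Socs3, none was called by these 4 tests, and 4 had an unadjusted p under 0.05. The most expressed of them were Jak1, a kinase of cytokine receptors, with a log2 fold change of 0.22 (FDR = 0.43), and Traf6, an adaptor of Toll-like receptor signalling, with 0.33 (FDR = 0.20).

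Other cell types were described by the summed CPM of their marker lists, each relative to the mean of the young pools. The 8 members without the REG3 genes were at 2.44 in old pool 1 and 0.975 in old pool 2. The other alpha-defensins were at 2.31 and 1.00 in the same pools, and the other REG family genes, mostly Reg4 and Reg1, at 2.17 and 1.04. Enterocyte markers were at 1.82 in old pool 1 and 1.52 in old pool 2, with 9 of 10 genes highest in old pool 1 and 3 called higher, Fabp1, Fabp2 and Sis. Of the 10, 7 had an unadjusted p under 0.05. Limma voom and the likelihood ratio test called 4 each, and DESeq2 called 2. Fabp1, a fatty acid binding protein, had a log2 fold change of 2.35 (FDR = 2.4e-06), and Vil1, the gene of villin, one of -0.01.
Goblet markers were at 1.18 and 0.918, with 3 of 8 genes highest in old pool 1, 0 called by the 4 tests and 0 at an unadjusted p under 0.05. Fcgbp, a mucus protein, was the most expressed of them after Muc2, at a log2 fold change of -0.02. Enteroendocrine markers were at 1.39 and 0.980, inside the young range of 0.427 to 1.57, with 0 of 8 genes called by edgeR's quasi-likelihood test, 2 at an unadjusted p under 0.05 and 1 called by the likelihood ratio test. Chgb and Gcg, the most expressed of these, had log2 fold changes of 0.22 and -0.04. The 2 at an unadjusted p under 0.05 were Gip (log2 fold change 1.71, FDR = 0.10) and Cck (0.90, FDR = 0.19). Gip was highest in old pool 1, at 6.66 CPM against 1.72 CPM in old pool 2, and Cck was highest in old pool 2. Stem cell markers were at 0.967 and 1.03, sums to which Olfm4 and Slc12a2 contributed most. Per gene, 6 of 11 had both old pools below both young pools and 2 had both above, against 23.6% and 24.0% of all genes, and the median gene was at 0.897 of the young mean in old pool 1 and 0.891 in old pool 2. None of the 11 was called by edgeR's quasi-likelihood test and 1 by each of the other 3 tests. Of the 5 at an unadjusted p under 0.05, Axin2 (log2 fold change -0.46, FDR = 0.051), Rnf43 (-0.41) and Tnfrsf19 (-0.46) had lower values in old pools, and Ascl2 (0.33) and Slc12a2 (0.25) higher ones. Tuft cell markers, of low level, were at 2.21 in old pool 1 and 1.43 in old pool 2, against 0.763 and 1.24 in the young pools. Among them Pou2f3 had a log2 fold change of -0.21 (FDR = 0.85), and Dclk1 was called, from 4 and 4 counts in young to 42 and 19 counts in old pools (log2 fold change 3.09, FDR = 0.026), though not by limma voom. Leukocyte markers summed to between 157 and 272 counts, nearly all on Itgam, which was also called (log2 fold change 0.78, FDR = 0.030, not called by DESeq2; 3450 of its 5024 exonic bp overlap Gm49368 on the same strand, so these reads may not be its own), and 4 of the 10 were at 0 in every library. Exons of Olfm4, Dclk1, Axin2, Vil1 and Jak1 also overlap those of another gene, by between 4 and 209 bp each. The part of other cell types in the levels of the Paneth cell genes was not tested.

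**Figure D4:**
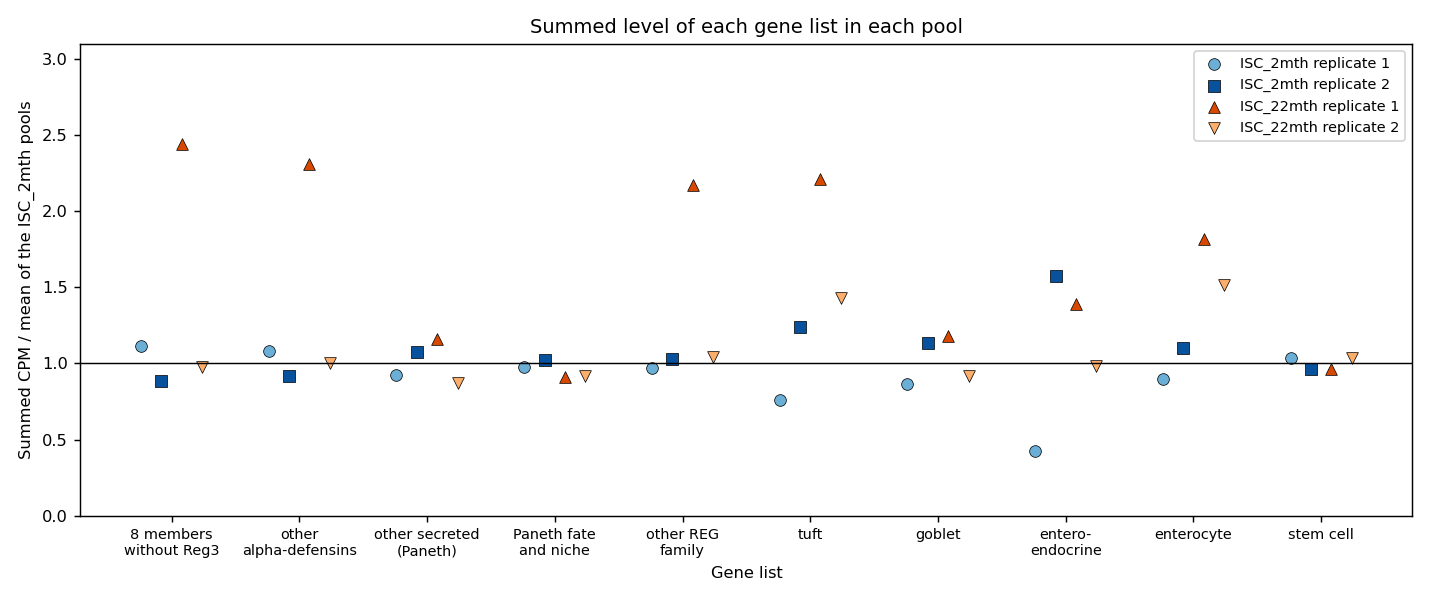
Summed CPM of 10 gene lists in each of the 4 pools, divided by the mean of the ISC_2mth pools (vertical axis from 0, line at 1). The 8 members without the REG3 genes (2.44) and the other alpha-defensins (2.31) are highest in ISC_22mth replicate 1, as are the tuft markers (2.21) and other REG family genes (2.17). Both old pools lie above both young pools for the enterocyte markers, the tuft markers and, narrowly, the other REG family genes.

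Cd24a, the gene of the sort antigen CD24, which is high on Paneth cells and was gated at a medium level, rose in both old pools. It was at 334 and 280 CPM in the young pools and at 475 and 508 CPM in the old pools, a log2 fold change of 0.68 (SE 0.11, FDR = 0.0035). Old pool 2 was thus slightly above old pool 1 for Cd24a, the opposite order to that of the 8 granule genes. Hspa5, the gene of GRP78, which was gated as low, was highest in old pool 1, as were the 8 granule genes and 25.3% of all genes. It was at 86.6 and 98.1 CPM in young pools, 133.9 CPM in old pool 1 and 92.4 CPM in old pool 2 (log2 fold change 0.29, FDR = 0.33). Young pool 1 was below young pool 2 for Hspa5, unlike for most of the granule genes. Epcam, another sort antigen and marker of epithelium, had a log2 fold change of 0.06 (FDR = 0.84). Ephb2, gated as high, was at 59.0 and 51.5 CPM in the young pools and at 35.6 and 41.7 CPM in the old pools (log2 fold change -0.52, FDR = 0.058), and Cd44 had a log2 fold change of -0.24 (FDR = 0.36). Of the 6 sort antigens tested, edgeR's quasi-likelihood test and DESeq2 called 1, and limma voom and the likelihood ratio test called 2. Whether CD24 levels at sorting moved with the Paneth cell transcripts was not tested.

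Promoters from RefSeq (GRCm38.p6, 250 bases before to 50 after the start) were given for 7 of the 10 genes, and Defa17, Defa24 and AY761184 had no entry. The motif CTTTGNN with A or T at both N, to which TCF factors of the Wnt pathway bind, was searched on both strands. It was found in the promoters of Reg3g and Defa22, with 2 matches each, and in the overlapping promoter windows of Mmp7, with 1 match each. No match lay in those of Lyz1, Ang4, Itln1 or Reg3b. Of all 32851 promoter windows, 16.9% held the motif.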

How the data were processed

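RNA of sorted ISCs was amplified by single primer isothermal amplification and sequenced as single-end reads. Per the labels and the Methods, the authors trimmed reads with Trimmomatic (version 0.30), aligned them with STAR (version 2.4.2a) to GRCm38 and counted reads in exons of GENCODE vM15 genes with featureCounts, and the deposited values are raw counts per gene. Reads of 100 bases were cropped to 50. The strand setting is not given in the sources used here.

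The filter kept genes that exceeded 5 reads and 1 CPM in 1 library or more. Old and young pools were tested by glmQLFit and glmQLFTest of edgeR 4.0.16 under R 4.3.3, after TMM, with no covariate and a threshold of FDR 0.05. Standard errors came from the fold change and F value. The main alternatives were limma 3.58.1, DESeq2 1.42.0, other scalings and filters, a replicate block and offsets for GC content and length. The fit was tested on simulated counts. A floor of 3 counts was between 0.199 and 0.246 CPM. Replicates differed by more than sampling noise (chi-square per gene 10.3 and 7.53). The sources name separate pools, so p-values draw on the spread between pools. The fit also pulls each gene's variance toward that of all genes, so a gene's p-value does not rest on its own pools alone. Standard errors were 0.23 for Defa17 and 0.33 for Lyz1 in this fit, against 0.57 and 0.86 by DESeq2.

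Members and lists were chosen with earlier results of these data known. Genes named are the members and, of each other list, those with FDR under 0.05 (at most 5) and the 2 of highest mean CPM. Outside this rule, Defa3, Defa21, Defa29 and Defa31 are named for their sequence. Lgr5, Ptprc, Pecam1, Ephb2, Cd44 and Hspa5 are named as checks of the sort. Socs3, Mptx2, Guca2b, Atoh1, Axin2, Rnf43, Tnfrsf19, Ascl2, Gip and Cck are named as examples, after their values were seen. Positions and sequences came from GENCODE vM21.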

Additional observations from a re-analysis of the deposited data

How the results depend on the processing

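Of the 10 genes, 2 had FDR under 0.05 by edgeR's quasi-likelihood test, of 309 genes called in all, and these numbers depended on the processing. The count among the 10 genes was 1 with total counts, the upper quartile, filterByExpr, at least 10 counts in every library or offsets for GC content and length, and that gene was Defa17 each time. It was 4 by the likelihood ratio test, 7 with no filter and 0 by DESeq2, which also gave 0 at an unadjusted p under 0.05. The number of genes called in all was 4650 with total counts, 554 with no filter, 611 by the likelihood ratio test, 197 by DESeq2 and 184 with the offsets. The cause was not tested. With each pool left out in turn, between 2 and 7 of the 10 genes and between 147 and 691 genes in all were called. The members' median log2 fold change was between 0.038 and 1.10, the lowest without ISC_22mth replicate 1.

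With total counts, Mmp7 (-0.099), Defa22 (-0.31) and Reg3g (-0.14) changed sign, against a shift of all genes to -0.50. With 1 pool left out, log2 fold changes ranged from -0.40 to 1.48 for Lyz1, -0.067 to 0.74 for Mmp7, -0.025 to 1.11 for Itln1, -0.61 to 0.77 for Defa22 and -0.015 to 1.09 for AY761184, and the other 5 genes stayed above 0, Ang4 at 0.09 without ISC_22mth replicate 1.

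With the replicate number as a block, 7 of the 10 genes and 623 genes in all were called. Deviations of same-numbered pools correlated by -0.00015 over all genes tested. No label says that a number marks a shared batch, so the numbers were not used as pairs. A correlation over all genes cannot tell whether a number marks a batch that touches few genes. Depth was lowest for Defa22 and Reg3b, with 61 and 100 counts in their lowest pools, but Lyz1, with at least 2485 counts, had a standard error (0.33) like theirs (0.34 and 0.32).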
